A study of Homo sapiens with 3 samples.

Results

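The empty vector and ZEB1 K80R libraries of HCT116, a human colorectal carcinoma cell line, were compared across protein-coding genes. The series holds 3 RNA-seq libraries, 1 from each of 3 cultures kept in the same medium and labelled with the same control treatment. The first carried an empty vector, the second overexpressed the ZEB1 K80R mutant, in which arginine replaces the lysine at residue 80, and the third overexpressed wild-type ZEB1. The labels do not say which vector or promoter was used, or whether the cells were pools or clones. Of the 58735 genes in the deposited table, 19893 are protein-coding genes outside the mitochondrial genome and the Y chromosome, and 10336 of these (51.958%) had a mean of at least 1 FPKM over the empty vector and K80R libraries and are described here. FPKM is the number of fragments per kilobase of gene, scaled to the size of the library. At this limit, ADM2 (mean 1.00029 FPKM) and TMTC2 (1.00034) lay just inside, and ALDH6A1 (0.998767) and RAB11FIP1 (0.998444) just outside. At least 1 FPKM was present in both libraries for 9955 genes, while 237 genes entered through the K80R library alone and 144 through the empty vector library alone, so the rule itself favours a difference in these. Every measured gene given below with less than 1 FPKM in either of these libraries is such a gene.

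ZEB1, a transcription factor with zinc fingers, binds E-box sequences and represses epithelial genes, above all CDH1, which encodes E-cadherin. It also takes part in activating mesenchymal genes, and cells with high ZEB1 tend to lose cell-cell junctions and gain matrix, adhesion and motility proteins. A lysine-to-arginine change keeps the positive charge of the side chain but removes an amino group that can be acetylated, ubiquitinated or otherwise modified.

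The 3 libraries held between 13479517 and 14764535 reads on genes, and 3 reads on a gene of 2 kb were worth 0.0944 FPKM in the empty vector library and 0.113 in the K80R library. The empty vector library stood apart from both ZEB1 libraries. Mitochondrial genes took 1.29% of its reads, against 9.75% in the K80R library and 7.77% in the wild-type library, and 350 genes had a single read in it, against 2902 and 2705. With 1 library per group, this difference between libraries and the effect of the introduced gene cannot be told apart, and no difference has a replicate check. Of 21 colon epithelium markers, 11 were listed at 0 in all 3 libraries, among them the defining markers EPCAM, CDX1, CDX2, HNF4A and VIL1, so the labelled cell type is not borne out by these. KRT8 (41.3 FPKM in empty vector, 41.6 in K80R) and KRT18 (51.5 and 48.0) were present, and the summed level of the list was 95.2, 93.3 and 104 FPKM in empty vector, K80R and wild-type. Of 7 fibroblast markers, 2 reached 1 FPKM (summed level 2.83, 2.40 and 3.38), and none of 18 markers of leukocytes, endothelium, hepatocytes, muscle and erythroid cells did (0.799, 0.900 and 1.01).

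The overexpressed gene was higher in the library named for it. ZEB1 (ENSG00000148516, chromosome 10, 31318495 to 31529814, hg38) stood at 5.66 FPKM (778 reads) in empty vector, 10.3 (1188 reads) in K80R and 9.83 in wild-type. The K80R level was 1.82 times that of the empty vector, with a 95% counting interval of 1.66 to 1.996 (exact conditional binomial method, counting error only, as for every interval of a ratio here). As a difference of log2(FPKM + 1) this was 0.764, and the 95th percentile over all genes measured was 0.768. A rise of this size was thus not particular to ZEB1. Reads of the introduced and the endogenous gene are not told apart in the table, and the levels of the 2 ZEB1 forms lay close together. CDH1 was listed at 0 in all 3 libraries, so no change of the classical ZEB1 target could be measured. VIM, the mesenchymal intermediate filament, stood at 283 FPKM in empty vector, 436 in K80R and 546 in wild-type.

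Most genes differed little between the libraries. Levels are given below in the order empty vector, K80R and wild-type, and wild-type shares its empty vector control with K80R. Of the 181 genes named by rule, 69 overlap another protein-coding gene (STT3A with CHEK1, for example). Where the neighbour lies on the other strand and counting ignored strand, reads of a shared stretch cannot be told apart. Where it lies on the same strand, as KAT14 does for PET117, a strand setting would not separate them either. The difference of log2(FPKM + 1), K80R minus empty vector, had a median of 0.0014 over the 10336 genes, with quartiles at -0.298 and 0.293, and 8281 genes (80.118%) lay within 1.5-fold. On this scale, which understates the change of genes expressed at a low level, 220 genes (2.13%) were at least 2-fold higher in K80R and 235 (2.27%) at least 2-fold lower. At 1.5-fold, 971 genes (9.39%) were higher and 1084 (10.5%) lower, and these shares are the background for every K80R count of members below. Counts in wild-type have another background. Of the 9549 measured genes without a transcription factor family, 1071 were at least 1.5-fold higher and 761 lower in wild-type, against 894 and 1031 in K80R. When both libraries were scaled to the same sum (TPM), the median of all genes shifted to -0.39, so differences are to be read relative to the other genes and not as absolute amounts of RNA. In that scaling 11.1% of the genes past 2-fold were higher in K80R, against 48.4% in the deposited scale, a fall that the common shift brings with it. Relative to its own median, 558 of the 12058 genes that passed the limit in that scaling were at least 2-fold higher and 470 lower. The sum of FPKM over the table was 223875 in the empty vector library, 303683 in K80R and 307544 in wild-type. For each list and family below, an interval of the median over members was formed from the ranked member values. Among the families described, only that of TIMM (-0.85 to -0.22) left out the median of all genes. Among the lists described, it was taken in by intermediate filaments, NF-kB genes, the BCL2 family, glutathione and NRF2 genes, and mitochondrial synthetases.

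**Figure D1:**
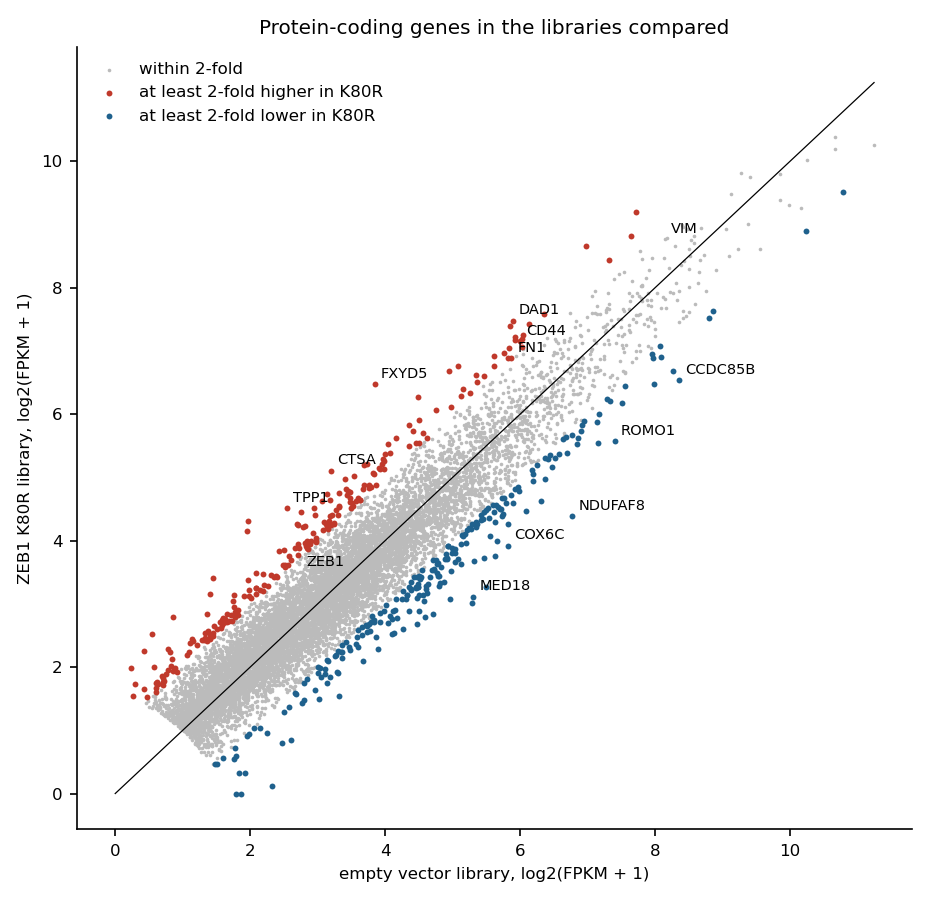
Expression of 10336 protein-coding genes, log2(FPKM + 1), in the empty vector library (x axis) and the ZEB1 K80R library (y axis), with 1 point per gene and the line of equal values. The 220 genes at least 2-fold higher in K80R are red and the 235 at least 2-fold lower are blue, and most genes lie close to the line.

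Short genes were more often lower in K80R. In the decile of genes with the shortest gene length (at most 2180 bases), 295 of 1034 were at least 1.5-fold lower and 131 higher, with a median difference of -0.24. In the decile with the longest (10626 to 46064 bases), 14 of 1033 were lower and 92 higher, with a median of 0.13. Wild-type ZEB1 against the same empty vector library gave 162 lower and 204 higher in the shortest decile, with a median of 0.01. The decile with the highest transcript GC content (61.4 to 74.4%) was also tilted, with 22.4% of 1033 genes lower and 5.52% higher. After the median of genes of like length was subtracted, 62.2% of the genes past 2-fold were higher in K80R. The part of length and base composition in the results below was not tested, so the length-adjusted median of a group stands beside its median where the adjustment moved it by more than 1.5 times.

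**Figure D2:**
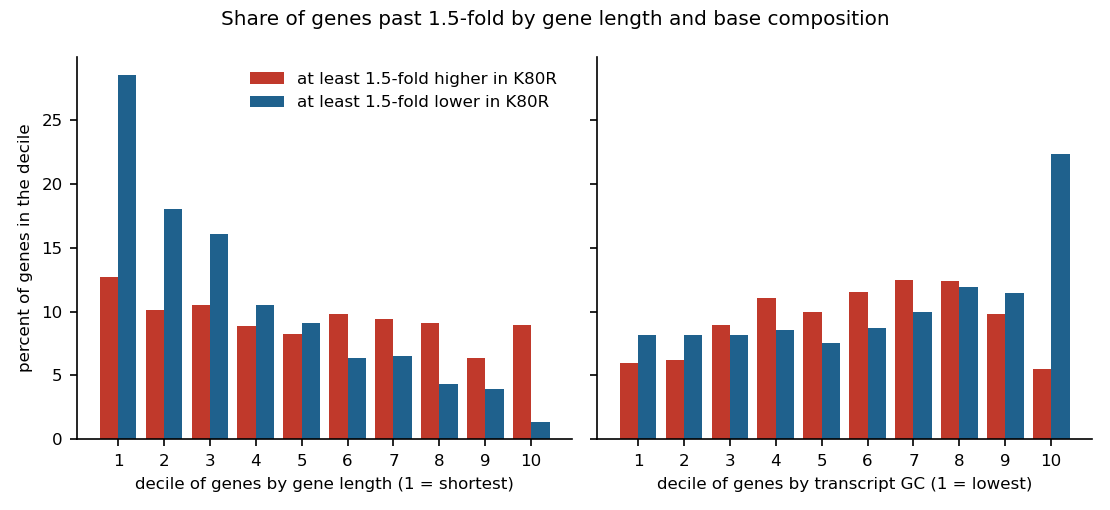
Percent of genes at least 1.5-fold higher (red) or lower (blue) in ZEB1 K80R than in empty vector, in deciles of genes by gene length (left) and by transcript GC content (right). Lower genes make up 28.5% of the shortest decile and 1.36% of the longest, and 22.4% of the decile with the highest GC content.

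Genes of endoplasmic reticulum folding and glycosylation, and lysosomal hydrolases and membrane proteins, were more often higher in K80R than all genes. The endoplasmic reticulum is where secreted and membrane proteins are threaded through the SEC61 channel, folded and given N-linked glycans and GPI anchors, and the lysosome is where hydrolases break such proteins, lipids and glycans down. Of 86 measured genes of endoplasmic reticulum folding and glycosylation, 24 were at least 1.5-fold higher in K80R and 4 lower, with a median difference of 0.37 against 0.0014 over all genes. Of 59 lysosomal genes, 19 were higher, none was lower, and the median was 0.37. In the wild-type library, compared with the same empty vector library, the corresponding medians were 0.29 and 0.42. Another list of lysosomal genes, the vacuolar proton pump and mTORC1 regulators, did not share this. Of its 45 measured genes, 4 were higher and 4 lower in K80R (8.89% each), with a median of -0.06.

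The oligosaccharyltransferase, which moves the finished glycan onto the growing protein, held several of the largest differences. DAD1, a small subunit of the enzyme, stood at 58.3 FPKM in empty vector, 178 in K80R and 184 in wild-type, a K80R level 3.04 times that of the empty vector (2.80 to 3.32). STT3A, the catalytic subunit that works beside the translocon, stood at 14.6, 38.2 and 30.1 FPKM, a ratio of 2.62 (2.47 to 2.77). DDOST, another subunit, stood at 81.1, 190 and 179 FPKM. In each of these genes both ZEB1 libraries lay far above the empty vector. Other members of the enzyme were picked out after their values were seen: RPN2 stood at 64.4, 144 and 125 FPKM and RPN1 at 80.7, 136 and 134, whereas STT3B, the catalytic subunit of the second form of the enzyme, stood at 92.2, 105 and 89.7. PIGU, a subunit of the transamidase that attaches GPI anchors, had 4.65, 13.5 and 10.8 FPKM.

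The upstream steps of the glycan pathway tilted the same way. ALG proteins build the lipid-linked glycan, and 3 of 13 were at least 1.5-fold higher with none lower (median 0.46, and 0.12 in wild-type). ALG8, a glucosyltransferase of that pathway, stood at 9.77 FPKM in empty vector, 18.6 in K80R and 15.6 in wild-type. ALG3, a mannosyltransferase, stood at 16.1, 27.2 and 25.9, ALG10 at 1.26, 2.48 and 1.45, and ALG9 at 0.888, 1.75 and 1.30. ALG10 was thus closer in wild-type to the empty vector than to K80R, with a single library behind each value. The largest differences downward in this list were those of DPM3, which anchors the enzyme that makes dolichol-phosphate mannose (71.4, 33.7 and 52.4 FPKM), and SDF2L1, a cofactor of the chaperone BiP (44.8, 22.2 and 23.6).

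The ER membrane complex, which inserts transmembrane segments into the membrane, had 3 of its 9 measured EMC genes at least 1.5-fold higher and none lower (median 0.41, and 0.30 in wild-type). EMC3, the core insertase subunit, stood at 4.70 FPKM in empty vector, 10.4 in K80R and 8.93 in wild-type. EMC7 stood at 33.7, 62.7 and 63.0, EMC10 at 2.41, 4.62 and 4.34, and EMC4 at 11.6, 15.9 and 16.7. Among the 13 FKBP genes, which encode prolyl isomerases, 4 were higher and 1 lower, with 8 above 0 and 5 below (median 0.40, and 0.07 without a filter). FKBP10, the isomerase that helps collagen fold in the endoplasmic reticulum, stood at 51.9, 98.5 and 112 FPKM. FKBP7 stood at 1.72, 4.63 and 4.38, FKBP15 at 2.61, 4.78 and 4.90, and FKBP1C, whose reads may be shared with a near-identical gene, at 6.34, 10.6 and 13.2. FKBP8, an isomerase of the mitochondrial outer membrane, lay on the other side at 72.3, 37.4 and 63.6.

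Among lysosomal genes, 2 hydrolases were among the 12 largest increases of all genes. TPP1 (ENSG00000166340, chromosome 11, 6612763 to 6619485), a tripeptidyl peptidase, stood at 4.81 FPKM (500 reads) in empty vector, 21.9 (1911 reads) in K80R and 20.2 in wild-type, and the K80R level was 4.56 times the empty vector level (4.13 to 5.04). CTSA, which encodes cathepsin A and protects partner hydrolases, stood at 8.14, 33.5 and 37.1 FPKM, a ratio of 4.11 (3.79 to 4.46), and its gene overlaps NEURL2 and PLTP on the other strand. GLB1, lysosomal beta-galactosidase, stood at 8.28, 20.3 and 22.4. For these genes the K80R and wild-type libraries were close together and well above the empty vector. MCOLN3, a cation channel of endosomes and lysosomes, had 0.722, 2.88 and 1.39 FPKM, with wild-type nearer the empty vector. The remaining members ran from -0.33 for GBE1, a cytosolic glycogen enzyme that the symbol pattern of the list took in, to 1.15 for LAPTM4A on the log2 scale.

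**Figure D3:**
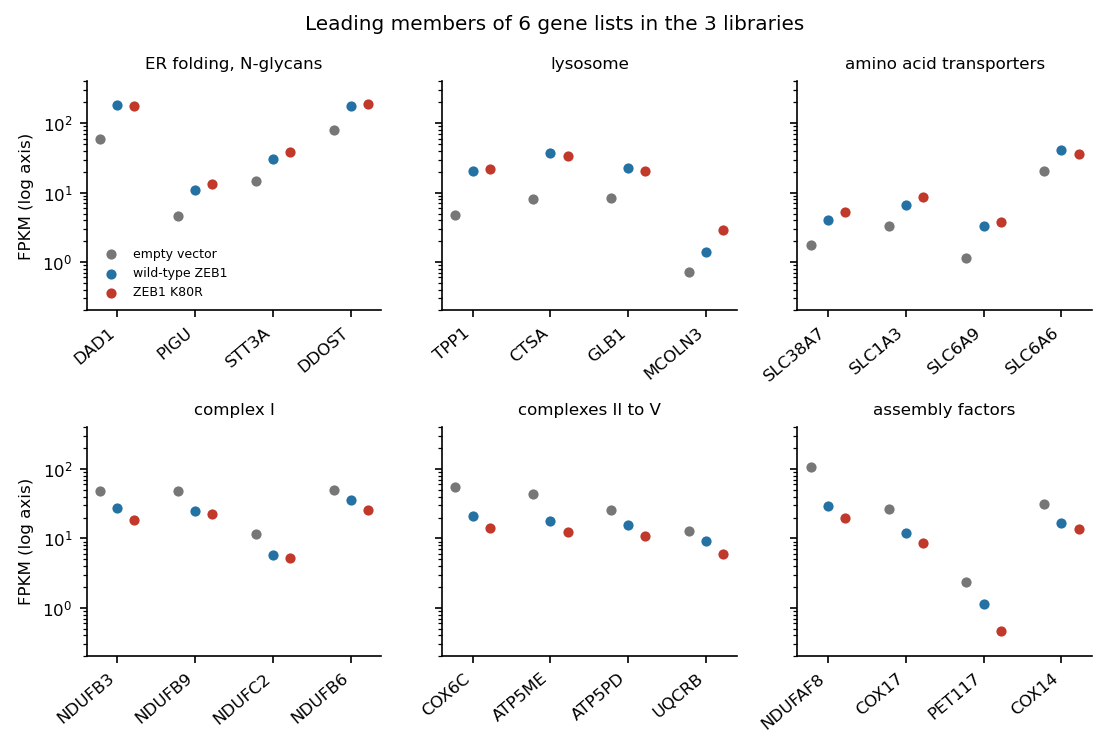
FPKM on a log axis in the 3 libraries (1 point per library) for the leading members of 6 gene lists. In the upper row (endoplasmic reticulum, lysosome, amino acid transporters) both ZEB1 libraries lie above the empty vector, and in the lower row (complex I, complexes II to V, assembly factors) both lie below it. This choice of members fixes the side of the K80R points and favours the same side for wild-type.

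Transporters of amino acids and other solutes were higher in K80R. Solute carriers are membrane proteins that move small molecules across the plasma membrane and organelle membranes. Of 23 amino acid transporters, 8 were at least 1.5-fold higher in K80R, none was lower, and the median was 0.43 (0.25 in wild-type). SLC38A7, which exports glutamine from lysosomes, stood at 1.76 FPKM in empty vector, 5.28 in K80R and 4.01 in wild-type. SLC1A3, a glutamate transporter, stood at 3.26, 8.57 and 6.64, SLC6A9, a glycine transporter, at 1.13, 3.73 and 3.34, and SLC6A6, a taurine transporter, at 20.3, 35.9 and 41.5. All 4 were higher in both ZEB1 libraries. Over all 141 solute carriers outside mitochondria, which take in these 23, 27 were higher and 4 lower, with a median of 0.28. SLC29A1, an equilibrative nucleoside transporter, stood at 7.71, 18.1 and 11.9 FPKM. On the lower side were SLC9A3R2 (22.02, 11.5 and 15.7) and SLC2A4RG (40.9, 25.1 and 40.1), which share the SLC symbol but encode a scaffold and a transcription regulator rather than carriers. Without the filter on low values the median of the solute carriers was 0.03, since 82 of the 324 in the table had no read in either library.

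Genes of the mesenchymal state, the matrix and cell adhesion were higher in K80R. Of 36 mesenchymal genes, 16 (44.4%) were at least 1.5-fold higher and 2 lower, with a median of 0.45 (0.53 in wild-type). In a bulk library, more cells of a kind and more RNA per cell cannot be told apart. CD44, the hyaluronan receptor, stood at 62.9 FPKM in empty vector, 141 in K80R and 149 in wild-type, a ratio of 2.25 (2.19 to 2.30). ITGA5, the alpha chain of the fibronectin receptor, stood at 55.6, 117 and 132, and COL6A2, a collagen VI chain, at 17.9, 33.9 and 46.6. Both ZEB1 libraries were above the empty vector in all 3. TPM2, a tropomyosin of actin filaments, went the other way with 114, 45.1 and 65.3 FPKM, as did COL1A1 at a low level (1.70, 0.680 and 0.930). The list was drawn up with earlier results of these libraries known and is no independent evidence of its direction.

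Among laminins, fibronectin and other matrix glycoproteins, 11 of 32 genes were higher and 1 lower, with a median of 0.40 (0.30 in wild-type); 4 of these genes are also in the mesenchymal list. FN1, fibronectin, stood at 57.4 FPKM in empty vector, 117 in K80R and 112 in wild-type, a ratio of 2.05 (2.01 to 2.09). EFEMP1, a fibulin, stood at 34.7, 83.1 and 74.6, and its relative EFEMP2 at 5.17, 10.1 and 14.7. NID1, nidogen of the basement membrane, stood at 11.3, 23.9 and 22.2. The exception past 1.5-fold was EMILIN2, an elastin-associated glycoprotein, at 1.84, 0.817 and 0.867. Enzymes that modify and secrete collagen had 7 of 21 members higher and 1 lower (median 0.36, and 0.58 in wild-type). PLOD1, a lysyl hydroxylase, stood at 20.7, 38.4 and 41.5 FPKM, MIA3, which loads collagen into transport carriers, at 6.24, 11.6 and 10.1, and PCOLCE, an enhancer of procollagen processing, at 0.196, 1.91 and 1.601. PCOLCE was below 1 FPKM in empty vector and entered through the K80R library. With at least 1 FPKM asked of both libraries, 19 members were left, and their median relative to all genes was 0.27. P3H3, of the prolyl 3-hydroxylase family, was on the lower side with 27.05, 17.5 and 22.3.

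Among proteases that cut the matrix and cell-surface proteins, 4 of 29 ADAM, ADAMTS, MMP and TIMP genes (13.8%, near the background of 9.39%) were at least 1.5-fold higher and none lower, and their median was 0.32 (0.28 in wild-type). MMP1, interstitial collagenase, stood at 5.56 FPKM in empty vector, 12.7 in K80R and 17.9 in wild-type. MMP9, a gelatinase, stood at 2.13, 4.98 and 29.7, so its highest level was in wild-type. TIMP1, an inhibitor of these proteases, stood at 46.6, 74.4 and 85.8, and ADAM10, a sheddase, at 12.01, 18.7 and 16.5.

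Among adhesion receptors, cadherins were more often higher in K80R than the background of 9.39%, and the integrin shares rested on few genes. Of 16 measured cadherins and protocadherins, out of 104 in the table, 7 (43.8%) were at least 1.5-fold higher, none was lower, and the median was 0.30 (0.15 in wild-type). CDH13, a cadherin anchored by GPI, stood at 4.95 FPKM in empty vector, 12.5 in K80R and 14.7 in wild-type. PCDH1, a protocadherin, stood at 1.99, 5.32 and 5.42, and DSG2, a desmosomal cadherin, at 21.1, 39.9 and 27.9. PCDHGB4 (1.41, 3.25 and 2.35) shares exons with its gene cluster, so its reads are uncertain. The cadherin median was 0.02 without the filter on low values. Among 16 genes with integrin symbols, 3 were higher (18.8%, background 9.39%) and 2 lower (12.5%, background 10.5%). Their median was 0.28 (0.33 in wild-type), and with so few genes past 1.5-fold the shares are uncertain. ITGA2, a collagen receptor chain, stood at 106, 192 and 140 FPKM, ITGB1, its partner, at 185, 304 and 261, and ITGA6, a laminin receptor chain, at 155, 203 and 153. Both lower genes, ITGBL1 (10.5, 6.15 and 5.18) and ITGB1BP1 (12.01, 7.13 and 6.77), encode no integrin chain. They were looked at after their direction was seen, and the counts and median given here keep them in.

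Guidance cues and receptor tyrosine kinases followed the same direction. Semaphorins and ephrins are ligands that steer migrating cells and axons through plexin, neuropilin and Eph receptors. Of 34 such genes, 10 were at least 1.5-fold higher and 1 lower, with a median of 0.39 (0.36 in wild-type). EPHA4, a receptor, stood at 1.05 FPKM in empty vector, 2.97 in K80R and 1.84 in wild-type. SEMA3A, a secreted ligand, stood at 1.36, 3.47 and 2.68, its co-receptor relative NRP2 at 13.2, 23.5 and 29.5, and the ligand EFNA4 at 2.24, 4.81 and 4.99. Within the 13 SEMA genes the median was 0.44 (0.28 after subtraction of the length bins, relative to all genes), with 8 genes above 0 and 5 below. It depended on the filter: relative to all genes it was 0.25 with at least 1 FPKM in both libraries, 0.10 with a mean of at least 5 FPKM and 0.05 without a filter. SEMA4B stood at 18.4, 32.3 and 72.0 FPKM, SEMA4G at 0.515, 1.56 and 1.61, and SEMA3C at 6.86, 10.5 and 8.94, whereas SEMA6B was lower at 46.5, 25.3 and 36.6. SEMA4B was highest in wild-type, and SEMA6B had its lowest value in K80R. 

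Of 16 receptor tyrosine kinases, 4 were higher, none was lower, and the median was 0.41 (0.25 in wild-type). EGFR stood at 9.48 FPKM in empty vector, 17.1 in K80R and 14.9 in wild-type, a ratio of 1.80 (1.70 to 1.91). ROR1, a receptor for a Wnt ligand, stood at 0.487, 1.71 and 1.06, PDGFRB at 0.573, 1.54 and 2.19, and FGFR1 at 4.83, 7.78 and 7.65. ROR1 and PDGFRB were below 1 FPKM in empty vector and entered through the K80R library. With at least 1 FPKM asked of both libraries, 13 kinases were left, their median relative to all genes was 0.26, and without any filter it was 0.06.

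**Figure D4:**
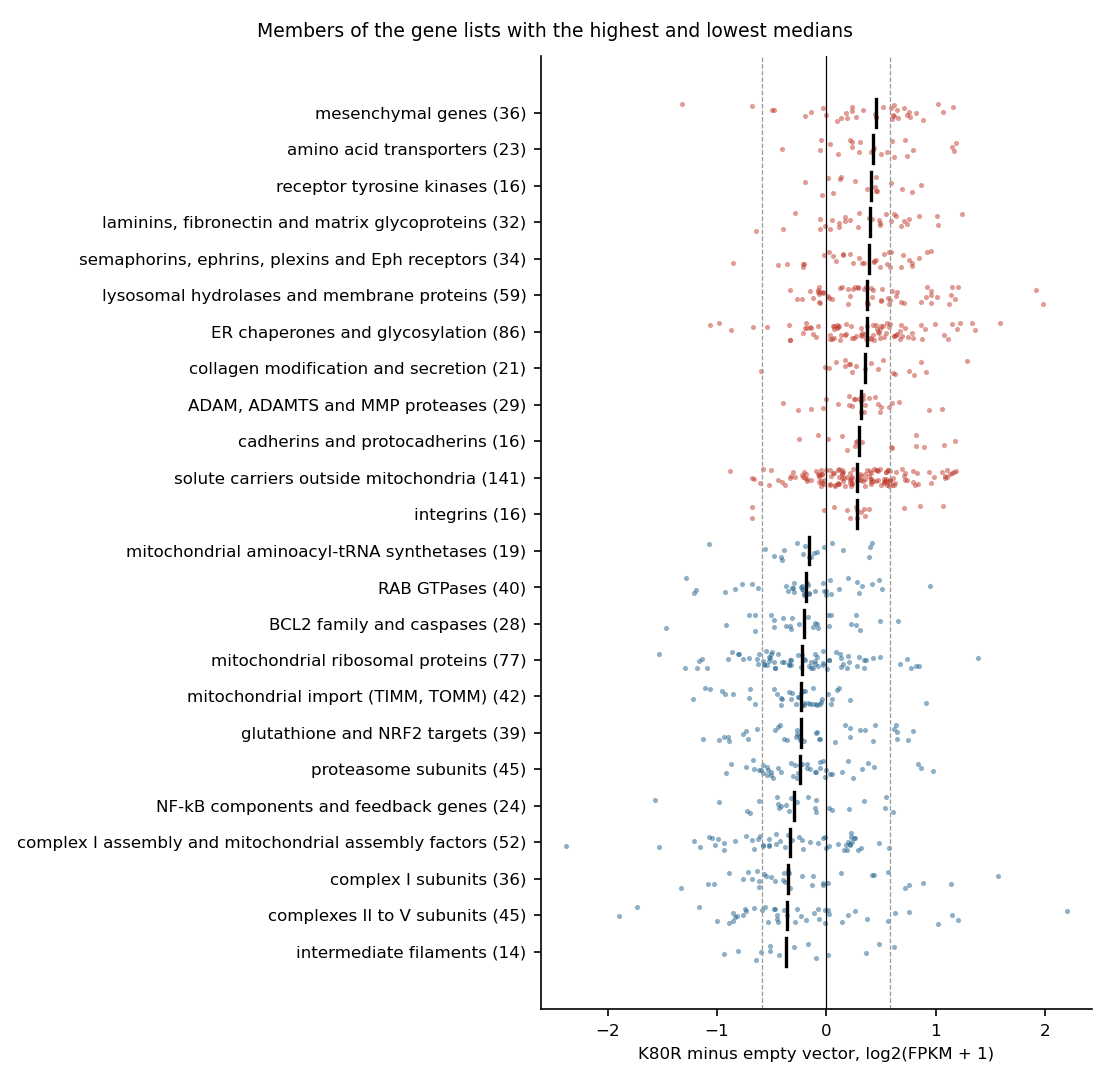
Difference of log2(FPKM + 1), K80R minus empty vector, for each measured member (points) of the 12 gene lists with the highest medians (red) and the 12 with the lowest (blue), with the number of measured members in brackets. Black bars are the medians, which run from 0.45 to -0.37, and dashed lines mark 1.5-fold. The members of each list spread on both sides of 0.

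Nuclear genes of the mitochondrial respiratory chain had medians below 0 in K80R. The chain consists of complexes I to IV, which pump protons, and complex V, the ATP synthase, and the subunits counted here are made in the cytosol and imported. Of 36 complex I subunits, 10 were at least 1.5-fold lower and 5 higher, with a median of -0.36. Of 45 subunits of complexes II to V, 13 were lower and 6 higher, with a median of -0.36. The medians against the same empty vector were -0.06 and 0.01 for wild-type ZEB1. These are short genes (median gene length of complex I subunits 2563.5 bases), and after subtraction of the length bins the complex I median relative to all genes was -0.12 in place of -0.36. For complexes II to V it was -0.27 in place of -0.36. Reads on the genes of the mitochondrial genome itself, which are not among these subunits, were 1.29% of the empty vector library and 9.75% of the K80R library.

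Within complex I the NDUFB genes, which encode subunits of the membrane arm, had the lowest median of the 166 families formed by symbol, at -0.63 (-0.28 in wild-type), with 6 of 11 lower and 1 higher. The interval of that median over members (-1.08 to 0.56) takes in the median of all genes. NDUFB3 stood at 48.6 FPKM in empty vector, 18.7 in K80R and 27.1 in wild-type, and the empty vector level was 2.59 times the K80R level (2.26 to 2.98). NDUFB9 stood at 48.98, 22.7 and 24.7, NDUFB6 at 49.3, 26.1 and 35.7, and NDUFB1 at 10.96, 6.07 and 6.66. NDUFC2, another membrane-arm subunit, stood at 11.6, 5.18 and 5.69. For these subunits the empty vector library was the highest of the 3 and K80R the lowest, an order favoured by their choice as the largest decreases in K80R. NDUFB4 (9.56, 30.4 and 39.7) and NDUFA4 (7.98, 18.8 and 22.8), which is counted with complex I by its symbol, were higher in both ZEB1 libraries.

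In complexes II to V, COX6C, a subunit of cytochrome c oxidase, stood at 55.3 FPKM in empty vector, 14.1 in K80R and 21.2 in wild-type, an empty vector level 3.92 times that of K80R (3.58 to 4.29). ATP5ME, a membrane subunit of the ATP synthase, stood at 43.3, 12.3 and 17.8, ATP5PD, of the stalk of that enzyme, at 25.4, 10.7 and 15.6, and UQCRB, of complex III, at 12.98, 5.98 and 9.21. Against this, ATP5MF stood at 2.88, 16.8 and 19.4 and COX8A at 53.01, 124 and 168. Members of 1 complex therefore lay on both sides, and COX6C overlaps VPS13B, ATP5ME overlaps MYL5 and ATP5MF overlaps PTCD1 and CPSF4, with no strand setting of the counting given in the sources used here.

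Assembly factors of the chain were lower with no exception past 1.5-fold: 16 of 52 were lower and none higher, with a median of -0.33 (-0.21 in wild-type). NDUFAF8 (ENSG00000224877, chromosome 17, 81239239 to 81241281), an assembly factor of complex I, had the largest decrease of all genes. It stood at 108 FPKM (2362 reads) in empty vector, 19.97 (366 reads) in K80R and 29.8 in wild-type, and the empty vector level was 5.41 times the K80R level (4.85 to 6.06). COX17, a copper chaperone for cytochrome c oxidase, stood at 26.95, 8.71 and 12.1, and COX14 at 31.6, 13.6 and 16.96. PET117 stood at 2.37, 0.461 and 1.14 FPKM. The empty vector was the highest library for all 4, and K80R the lowest, an order favoured by their choice as the largest decreases in K80R.

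Import and translation in mitochondria tilted the same way. Of 42 genes of mitochondrial import, 9 were at least 1.5-fold lower and 1 higher, with a median of -0.23 (-0.19 in wild-type), which became -0.14 relative to all genes after subtraction of the length bins. CHCHD1, a mitochondrial protein with a twin-cysteine motif that the symbol pattern took in, stood at 31.6 FPKM in empty vector, 13.01 in K80R and 16.3 in wild-type. TOMM7, of the outer membrane translocase, stood at 30.9, 13.8 and 18.96, TIMM13, a chaperone between the membranes, at 52.1, 24.4 and 29.8, and TIMM8A, its relative, at 10.3, 4.82 and 4.04. All 15 TIMM genes but TIMM10B lay below 0, and 6 were past 1.5-fold (median -0.41), among them TIMM29 (16.4, 8.14 and 9.42) and TIMM23B (9.62, 4.89 and 3.01), which has a near-identical copy. PAM16, of the import motor, was higher at 1.22, 3.15 and 1.58.

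Of 77 mitochondrial ribosomal proteins, 15 were lower and 6 higher, with a median of -0.23 (-0.02 in wild-type) and -0.13 relative to all genes after subtraction of the length bins. MRPS28 stood at 7.14, 1.82 and 3.03 FPKM, MRPL30 at 26.4, 10.2 and 9.88, MRPL41 at 54.1, 23.3 and 32.2, and MRPS34 at 143, 63.4 and 77.3. MRPS36 (2.39, 7.85 and 8.86), which carries a ribosomal symbol, and MRPL53 (0.515, 1.73 and 1.13) were on the higher side. The 19 mitochondrial aminoacyl-tRNA synthetase and amidotransferase genes had a median of -0.16 (-0.15 in wild-type), with 1 past 1.5-fold. That gene was GATC, of the amidotransferase that makes glutaminyl-tRNA in mitochondria, at 8.61, 3.58 and 3.26. IARS2 (56.01, 41.7 and 46.6), HARS2 (16.3, 11.5 and 10.5) and AARS2 (9.52, 6.11 and 6.09) were lower by less. A share of 5.26% lower, with none higher, is below the background of 10.5% and 9.39%, and the interval of the median over members (-0.41 to 0.05) takes in the median of all genes.

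Genes of protein and RNA turnover had medians below 0 in K80R. Of 45 genes with proteasome symbols, 7 were at least 1.5-fold lower and 3 higher, with a median of -0.24 (-0.11 in wild-type). PSMB8, a catalytic subunit of the immunoproteasome, stood at 16.9 FPKM in empty vector, 8.49 in K80R and 14.5 in wild-type, and PSMB9, its partner, at 5.41, 3.03 and 6.98. PSMD4, a ubiquitin receptor of the cap, stood at 70.1, 37.9 and 53.3, and PSMG4, an assembly chaperone, at 2.98, 1.40 and 1.18. PSMD3 (20.1, 40.4 and 40.5) and PSMD8 (21.4, 39.8 and 43.8), also of the cap, were higher in both ZEB1 libraries. The exosome degrades and trims RNA from its 3′ end, and 4 of 10 EXOSC genes were lower and 1 higher (median -0.45, and -0.30 in wild-type). EXOSC3, a cap subunit, stood at 22.5, 7.82 and 9.88, and the ring subunits EXOSC6 at 27.5, 11.01 and 10.9, EXOSC4 at 25.6, 14.2 and 19.4, and EXOSC5 at 28.4, 18.1 and 24.3. The exception was EXOSC10, the nuclear catalytic subunit, at 9.54, 15.2 and 12.8.

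The CHMP and COMMD families, taken from the low end of the ranking, and the RAB GTPases had medians below 0. CHMP proteins form the ESCRT-III filaments that cut membranes, and 3 of 9 were lower and none higher, with a median of -0.54 (-0.17 in wild-type). CHMP2A stood at 41.4 FPKM in empty vector, 21.4 in K80R and 34.6 in wild-type, CHMP1A at 48.4, 29.4 and 31.8, CHMP2B at 13.4, 8.29 and 9.57, and CHMP5 at 39.5, 26.1 and 34.8. COMMD proteins form a complex that recycles receptors from endosomes and also controls NF-kB, and 3 of 10 were lower and none higher (median -0.48, and -0.09 in wild-type). COMMD8 stood at 36.8, 18.7 and 17.6, COMMD4 at 10.9, 5.59 and 6.67, COMMD6 at 6.02, 3.50 and 4.98, and COMMD7 at 12.3, 7.99 and 11.4. Other families of endosomal sorting did not share these counts. Of 34 VPS genes, 1 was higher and none lower (median 0.04), and of 25 SNX genes, 1 was higher and 1 lower (median -0.14). Of 40 RAB GTPases, which direct vesicles to their targets, 8 were lower and 1 higher (median -0.19, and 0.05 in wild-type). RAB1B, which acts between endoplasmic reticulum and Golgi, stood at 90.2, 38.5 and 53.2, RAB13 at 10.8, 4.17 and 7.17, RAB24 at 11.2, 3.999 and 7.65, and RAB23 at 4.93, 2.12 and 1.25. RAB5C, of early endosomes, was higher in both ZEB1 libraries (8.98, 18.2 and 18.8).

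Genes of redox control were split. Of 39 genes of glutathione metabolism and NRF2 targets, 9 were at least 1.5-fold lower and 6 higher, with a median of -0.23 in K80R against 0.20 in wild-type, and -0.15 relative to all genes after subtraction of the length bins. GSTO1, a glutathione transferase, stood at 161 FPKM in empty vector, 72.8 in K80R and 111 in wild-type. GSR, glutathione reductase, stood at 31.8, 16.2 and 17.4, and SOD1, the cytosolic superoxide dismutase, at 91.2, 48.4 and 62.2. SOD2, the mitochondrial superoxide dismutase and a target of NF-kB, stood at 5.74, 2.42 and 27.6, so K80R and wild-type lay on opposite sides of the empty vector. These values are of the entry ENSG00000112096. Another protein-coding SOD2 entry overlaps it on the same strand and WTAP on the other, so its reads may be divided or shared. TKT, transketolase of the pentose phosphate pathway, was higher at 35.01, 61.4 and 69.0, as was GSTM1 (1.48, 3.17 and 3.46), which shares sequence with its neighbours.

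Among cell-death and NF-kB genes the K80R library was mostly lower. Of 28 genes of the BCL2 family, caspases and their regulators, 5 were lower and 1 higher, with a median of -0.21 (-0.09 in wild-type). FADD, the adaptor of death receptors, stood at 19.4 FPKM in empty vector, 6.36 in K80R and 7.32 in wild-type, BAD at 9.80, 4.70 and 5.69, XIAP, a caspase inhibitor, at 10.7, 6.17 and 5.31, and BOK at 4.18, 2.30 and 2.99. The members thus include genes that promote cell death and a gene that restrains it. CASP2 was higher, at 2.48, 4.48 and 2.17. Of 24 NF-kB components and feedback genes, 5 were lower and 1 higher in K80R (median -0.29), and 2 were lower and 12 higher in wild-type (median 0.78), both against the same empty vector library. The interval of the K80R median over members (-0.44 to 0.02) takes in the median of all genes. NFKBIE, an inhibitor of NF-kB, stood at 11.7, 3.29 and 14.5, TNIP2 at 31.6, 18.7 and 29.9, IKBKG, the regulatory subunit of the kinase complex, at 5.37, 2.94 and 2.81, and CD83, on the higher side, at 3.65, 6.09 and 12.97.

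Among lists with at least 5 measured members, the lowest median belonged to the intermediate filaments, with 4 of 14 lower and 1 higher (median -0.37, and -0.12 in wild-type). LMNA, which encodes lamins A and C of the nuclear lamina, stood at 236.02 FPKM in empty vector, 134 in K80R and 149 in wild-type, and LMNB1 at 40.1, 25.3 and 19.95. KRT10 stood at 17.5, 11.2 and 16.4, and KRT86, whose reads may be shared with its close relative KRT81, at 4.81, 2.04 and 2.73. VIM was the member on the higher side. The list has 63 genes in the table, 34 of them with no read in either library, and its median without the filter was 0.

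Smaller families at the ends of the ranking rested on few genes past 1.5-fold. Among 8 ARMC genes, 3 were lower with none higher (median -0.38, and -0.37 in wild-type), with ARMC5 at 7.56, 3.75 and 4.17 FPKM, ARMC6 at 18.9, 10.4 and 9.75, ARMC1 at 18.2, 11.7 and 11.4 and ARMC8 at 5.20, 3.43 and 3.53. ARID genes encode DNA-binding subunits of chromatin complexes, and 2 of 8 were higher with none lower (median 0.38, and 0.26 relative to all genes after subtraction of the length bins). ARID3B stood at 0.993, 2.32 and 2.30 and ARID1A, of the SWI/SNF complex, at 4.77, 8.02 and 6.96, while ARID2 (1.85, 3.13 and 2.32) and ARID1B (1.08, 1.93 and 1.58) differed by less. Of 11 PARP genes, which encode ADP-ribosyltransferases, 2 were higher and 1 lower (median 0.34, and 0.40 in wild-type). PARP4 stood at 21.6, 35.7 and 28.8, PARP9 at 2.13, 3.78 and 2.84, PARP3 at 8.53, 13.3 and 14.5, PARP2 at 4.36, 6.71 and 7.63, and PARP10, on the lower side, at 10.6, 5.09 and 6.37.

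The genes with the largest differences came from many functions. FXYD5 (ENSG00000089327, chromosome 19, 35154730 to 35169883), which encodes dysadherin, a regulator of the sodium pump known to weaken E-cadherin adhesion, was first. It stood at 13.4 FPKM (637 reads) in empty vector, 87.7 (3498 reads) in K80R and 84.7 (3498 reads) in wild-type, a K80R level 6.55 times that of the empty vector (6.02 to 7.14). EMP3, a membrane protein of the PMP22 family, stood at 21.5, 76.5 and 84.8 FPKM, a ratio of 3.55 (3.23 to 3.91), and SP2, a zinc-finger transcription factor, at 1.64, 7.94 and 7.76, a ratio of 4.83 (3.85 to 6.12). In each the wild-type value lay next to the K80R value. IFITM1, an interferon-induced membrane protein, stood at 0.816, 5.91 and 6.91, and VKORC1, the vitamin K epoxide reductase, at 0.345, 3.77 and 4.63. SAGE1, a cancer-testis antigen, stood at 0.171 FPKM (8 reads), 2.95 (116 reads) and 2.36. The histone genes HIST1H4I (2.92, 18.9 and 19.7) and HIST1H2BD (1.73, 9.57 and 14.9) and the antigen gene GAGE12J (0.465, 4.72 and 0) have near-identical copies, so their values are uncertain. GAGE12J rests on 4 and 34 reads and was the exception to the shared direction: it was listed at 0 in wild-type, while the other 11 of the 12 highest genes were at least 1.5-fold higher there too. All were chosen by their difference from the shared empty vector library, which favours that direction in wild-type.

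On the lower side NDUFAF8 was followed by PDF, the peptide deformylase of mitochondria, at 37.9 FPKM in empty vector, 7.07 in K80R and 9.51 in wild-type, with an empty vector level 5.36 times that of K80R (4.38 to 6.62). The PDF gene overlaps COG8 on the same strand, so its reads are uncertain. TMEM160 stood at 44.1, 8.61 and 14.5, and MED18, a Mediator subunit, at 38.6, 7.66 and 10.4. PMVK, phosphomevalonate kinase of isoprenoid synthesis, stood at 25.1, 6.16 and 8.04, CENPW, a kinetochore protein, at 48.3, 12.5 and 18.5, and FAM173A at 30.2, 7.42 and 13.2. The most abundant were CCDC85B at 327, 92.2 and 156 and ROMO1, a small protein of the mitochondrial inner membrane, at 168, 46.6 and 70.8. GJD3, a connexin, had 3.98, 0.0848 and 0.819 FPKM with 1 read in K80R, an empty vector level 46.96 times that of K80R within a counting interval of 8.09 to 1887. GNG8, a G protein subunit, had 9 reads in empty vector and none in K80R, which makes it at least 2.52-fold lower against a floor of 3 reads. All 12 lowest genes were at least 1.5-fold lower in wild-type too, and in all of them K80R lay below wild-type. They were chosen by their K80R values, which favours K80R as the lowest library. Of all 235 genes at least 2-fold lower in K80R, 195 were at least 1.5-fold lower in wild-type. Of all 220 at least 2-fold higher, 201 were at least 1.5-fold higher there. Both comparisons share 1 empty vector library, and the genes were chosen by their difference from it. This favours the same direction in wild-type. For scale, 1071 of the 9549 measured genes without a transcription factor family were at least 1.5-fold higher in wild-type and 761 lower. Of the 787 with such a family, 104 were higher and 52 lower. The median gene length of the 12 lowest genes was 1219 bases, against 2233 bases for the 12 highest, and 9 of these 24 genes overlap another protein-coding gene.

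**Figure D5:**
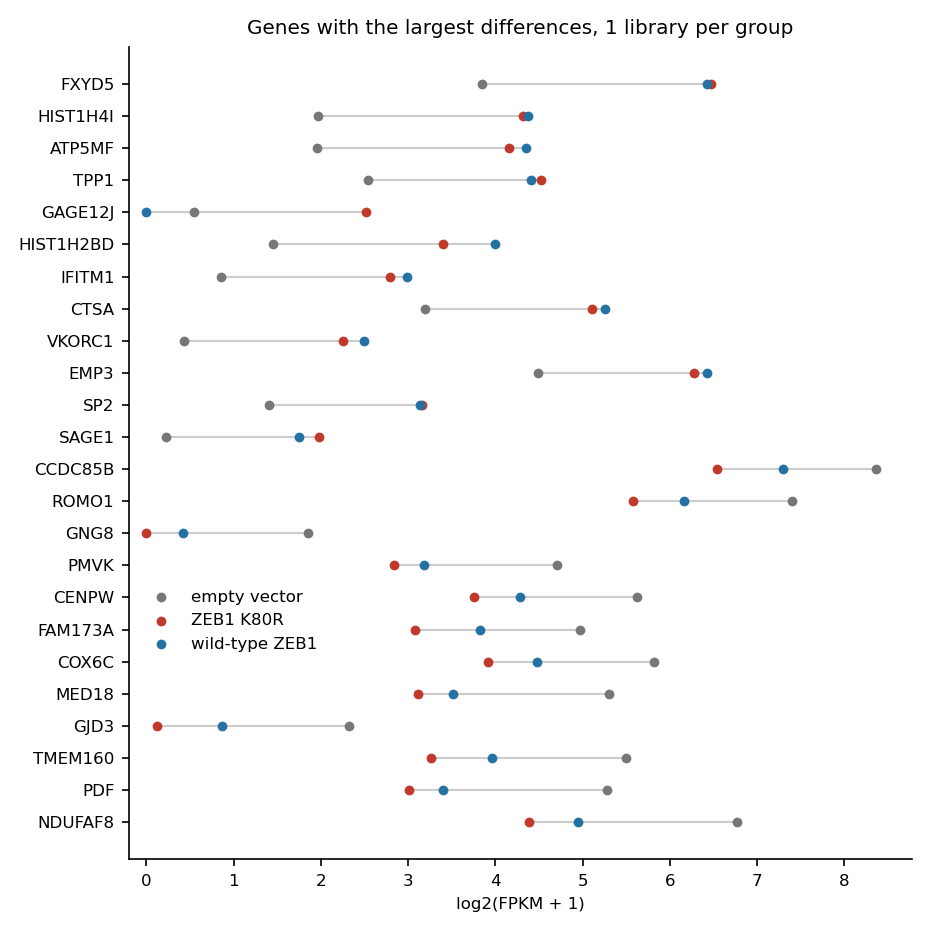
Expression as log2(FPKM + 1) of the 12 genes with the largest increase (top) and the 12 with the largest decrease (bottom) in K80R, with 1 point for each of the 3 libraries and a grey line over their range. The wild-type points lie on the K80R side of the empty vector for all genes shown except GAGE12J, which the choice of genes against the shared empty vector library favours.

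Because ZEB1 binds the E-box CAGGTG, which reads CACCTG on the other strand, the promoters of measured genes were searched for both words, without overlap between them. RefSeq promoters (build GRCh38.p14, 250 bases before to 50 after the first listed start) were matched by symbol or gene ID for 8334 of the 10336 genes. An E-box stood in 16.8% of all 8334 promoters (95% exact binomial interval 15.95 to 17.57%). The share was 17.4% of 172 genes at least 2-fold higher in K80R (12.1 to 23.95%) and 14.5% (27 genes) among those at least 2-fold lower (9.79 to 20.4%), and both intervals take in the share of all genes. Promoters with an E-box had a median difference of -0.01 and those without one 0.01. By the coordinates of the deposited table, 2305 of these windows lie wholly inside the gene. With the window nearest the start of the gene in place of the first listed, the shares were 16.8% of all genes, 17.4% of those higher and 14.5% of those lower. Of the 24 genes with the largest differences, COX6C was left out of this count and of the promoters given below. Among the others, 18 had a promoter and 2 of these an E-box. To show what was searched, 4 of these promoters are given 5′ to 3′ on the strand of the gene, with the E-box in capitals where there is one. TPP1 (chr11:6619373-6619672, minus strand) and SAGE1 (chrX:135893466-135893765, plus strand) hold 1 each, at bases 68 and 239 of the window, and FXYD5 (chr19:35154485-35154784, plus strand) and NDUFAF8 (chr17:81239664-81239963, plus strand), the genes with the largest increase and decrease, hold none there. The windows of SAGE1 and NDUFAF8 lie wholly inside these genes as the deposited table bounds them. For SAGE1 no other window is listed, and for NDUFAF8 the window nearest the gene's start (81239061 to 81239360) holds no E-box either.
TPP1: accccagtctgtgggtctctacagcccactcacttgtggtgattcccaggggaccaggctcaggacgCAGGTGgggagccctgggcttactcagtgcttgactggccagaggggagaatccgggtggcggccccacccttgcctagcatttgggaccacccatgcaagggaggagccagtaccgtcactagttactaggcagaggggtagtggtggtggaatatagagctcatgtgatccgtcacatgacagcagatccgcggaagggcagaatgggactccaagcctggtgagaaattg
SAGE1: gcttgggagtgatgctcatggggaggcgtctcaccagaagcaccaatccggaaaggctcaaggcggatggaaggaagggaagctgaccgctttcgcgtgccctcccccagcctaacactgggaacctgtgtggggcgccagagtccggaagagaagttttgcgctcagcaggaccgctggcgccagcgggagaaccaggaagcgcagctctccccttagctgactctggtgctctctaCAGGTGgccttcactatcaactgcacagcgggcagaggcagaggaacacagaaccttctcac
FXYD5: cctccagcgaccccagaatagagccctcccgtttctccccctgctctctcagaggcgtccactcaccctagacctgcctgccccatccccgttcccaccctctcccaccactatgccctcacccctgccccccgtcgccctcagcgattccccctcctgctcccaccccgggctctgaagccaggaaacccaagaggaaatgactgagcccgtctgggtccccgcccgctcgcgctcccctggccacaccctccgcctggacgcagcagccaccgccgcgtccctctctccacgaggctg
NDUFAF8: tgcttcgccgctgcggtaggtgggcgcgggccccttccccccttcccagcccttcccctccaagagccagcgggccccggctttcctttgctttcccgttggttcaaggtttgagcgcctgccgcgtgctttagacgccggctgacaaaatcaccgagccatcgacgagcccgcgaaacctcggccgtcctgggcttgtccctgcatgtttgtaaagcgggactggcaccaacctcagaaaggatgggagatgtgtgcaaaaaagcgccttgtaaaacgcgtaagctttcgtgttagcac

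The E-box of TPP1 lies well before the listed start and that of SAGE1 close to it. Both genes were higher in K80R and in wild-type, as FXYD5 was without the word in its window. A match of 6 letters is a description of the sequence and says nothing of whether ZEB1 was bound.

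Transcription factor genes were less often lower in K80R than all genes and about as often higher. Of 787 genes that the table assigns to a transcription factor family, 77 (9.78%, against 9.39% of all genes) were at least 1.5-fold higher in K80R and 53 (6.73%, against 10.5%) lower, with a median of 0.08 (0.06 in wild-type). This grouping and that by chromosome were chosen after the values had been seen. The 317 zf-C2H2 genes, the family of ZEB1 itself, had 25 (7.89%) higher and 11 (3.47%) lower with a median of 0.06. The zf-MIZ family, which includes SUMO ligases, had the highest median at 0.47 (3 of 7 higher, none lower), followed by zf-GATA at 0.44 (2 of 9 higher, none lower) and RFX at 0.38 (1 of 5). THAP genes had the lowest at -0.37, with 3 of 10 lower and none higher. The RHD family, which includes NF-kB subunits such as RELA and RELB, had none of 6 past 1.5-fold in K80R (median 0.07) and 3 of 6 higher in wild-type (median 0.77), against the same empty vector library. Of all 787 transcription factor genes, 104 were higher and 52 lower in wild-type. By chromosome, medians ran from -0.11 on chromosome 16 (69 of 476 genes lower, 31 higher) to 0.05 on chromosome 12 (51 of 559 lower, 63 higher), against an SD of 0.48 between all genes.

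Of 81 gene lists, 78 had at least 5 measured members, and 45 of these had a median above 0 and 33 below. The 54 lists outside the 12 at each end of the ranking had medians from -0.16 to 0.26. The other 3 lists had fewer members, and the markers of leukocytes, endothelium, hepatocytes and muscle had none measured.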

How the data were processed

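Gene expression was measured by RNA-seq in 3 HCT116 libraries, 1 per group, so no test between groups was possible and p-values are not given. Per the submitters' processing notes, CASAVA, featureCounts 1.5.0-p3, DESeq2 1.20.0 and build hg38 were used; no label or file header names the aligner, the annotation or the strand setting. The values are FPKM per gene as deposited by the authors. Multiplying FPKM by gene length gave whole reads for 100% of values (tolerance 0.05), and these reads gave exact conditional 95% counting intervals of FPKM ratios, which cover counting error only, and a floor of 3 reads. Genes were compared as differences of log2(FPKM + 1) with a pseudocount of 1, at folds of 2 over all genes and 1.5 within lists. The 81 lists, the families by symbol (at least 8 measured members) and the members were chosen with earlier results of these data known. Named genes are ZEB1, CDH1, VIM, the 12 largest differences in each direction, and of the 12 lists and 6 families at each end of the ranking by median up to 4 members in the direction of the median and up to 2 in the other past 1.5-fold; genes named beyond this are marked in the text. Of 12 alternative settings, 9 were set out at the start and 3 (GC bins, length and GC bins together, at least 200 reads) were added after seeing the data, as was a choice of promoter window nearest the gene's start. The scripts were tested on simulated data. Python 3.11.15, numpy 2.4.6, pandas 2.3.3, scipy 1.17.1 and matplotlib 3.10.9 were used.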

Additional observations from a re-analysis of the deposited data

Results flagged for a closer look

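Reads on mitochondrial genes, which take no part in the comparison of nuclear protein-coding genes, made up 9.75% of the ZEB1 K80R library, against 1.29% in empty vector and 7.77% in wild-type. Reads on genes annotated as antisense were 0.316% in K80R and 0.308% in empty vector, and those on snRNA genes were 0.00401% (541 reads) and 0.00178% (263 reads). Each was picked out because it lies outside the main measurement and above the empty vector level, with a single library on each side.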

How the results depend on the processing

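With a pseudocount of 0.1, 431 genes were at least 2-fold higher and 402 lower in K80R (220 and 235 with a pseudocount of 1). With a pseudocount of 5 these counts were 69 and 93, those at 1.5-fold were 365 and 539 (971 and 1084), and the medians relative to all genes were 0.18 for ADAM, ADAMTS and MMP proteases and 0.16 for solute carriers. With a mean of at least 5 FPKM, 595 genes were 1.5-fold higher and the mesenchymal median was 0.64. Without a filter the medians were 0.0596 for receptor tyrosine kinases, 0.0487 for ADAM, ADAMTS and MMP proteases, 0.0175 for cadherins, 0.0317 for solute carriers, 0.15 for laminins and other matrix glycoproteins and for semaphorins and ephrins, -0.07 for glutathione and NRF2 genes, -0.09 for the BCL2 family, -0.10 for RAB GTPases, 0.18 for ARID, 0.07 for FKBP and 0.05 for SEMA genes. With a mean of at least 5 FPKM the SEMA median was 0.10 and that of cadherins 0.63. A pseudocount of 5 made 12 of 24 list medians and 7 of 12 family medians smaller by over 1.5 times, and no filter did so for 10 and 3. Scaling to a common sum (TPM) gave 1538 genes 2-fold lower, and 601 higher and 4243 lower at 1.5-fold. Subtracting length bins gave -0.14 for mitochondrial import, and length and GC bins together gave 154 genes 2-fold lower, with 64.4% of the genes past 2-fold higher in K80R (48.4% otherwise). Over 12 settings no described list or family median changed sign, apart from the intermediate filaments at 0 without a filter. The order-statistic interval of the median over members held 268 of 276 list values and 144 of 144 family values. For small families these intervals are wide (-0.36 to 0.76 for SEMA genes), so a value within them can still have moved far. Of single-gene values, 1804 of 2082 moved by no more than the margin of their counting interval. No paired analysis was possible because each group has 1 library. A gene of 2 kb with 3 reads has 0.113 FPKM in K80R, so differences of genes below about that level were not detectable at this depth.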

Other observations

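Of the 54 gene lists with medians in between, 26 held more members at least 1.5-fold higher than the background of 9.39% and 19 more members lower than the background of 10.5%, 7 of them on both sides. Some are described here, chosen after their values were seen. Of 37 genes of fatty acid and phospholipid synthesis, 10 were at least 1.5-fold higher in K80R and 1 lower (median 0.22, and 0.10 in wild-type). Of 25 Notch pathway genes, 7 were higher and 2 lower (median 0.26), and of 62 G protein-coupled receptors, 14 were higher and 3 lower (median 0.25). On the other side, 18 of 83 ribosome biogenesis genes were lower and 4 higher (median -0.11, and -0.21 in wild-type), and 17 of 111 genes of Mediator, RNA polymerase II and general transcription factors were lower and 6 higher, although their median was 0.03. The 80 cytosolic ribosomal protein genes held 17 lower and 10 higher, with a median of -0.11 in K80R and 0.27 in wild-type, both against the same empty vector library. Genes of cholesterol synthesis (5 of 24 higher, 4 lower) and of the integrated stress and unfolded protein response (6 of 34 higher, 7 lower) passed the background on both sides. Of 25 YAP and TAZ targets, 6 were higher and none lower (median 0.10). The 16 measured replication-dependent histone genes were the most dispersed, with 6 higher and 5 lower around a median of 0.01, and their near-identical copies make single values uncertain.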
